A study of Mus musculus with 18 samples.

Results

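The genes described here carry peptides to the cell surface on MHC class I molecules: the heavy chains H2-K1 and H2-D1, their light chain B2m, the peptide transporter subunits Tap1 and Tap2, the loading factor Tapbp, and the immunoproteasome subunits Psmb8, Psmb9 and Psmb10. They were found by their gene names in the scanner files, which gave 9 genes of 20253 named on the array and 16 probes of 41174. All 9 genes were tested, among 13264 genes with a probe past the filter on dim signal, and 15 of the 16 probes passed that filter. Every transcript was measured in whole blood of male C57BL/6N mice aged 8 to 12 weeks, on 1-colour arrays with 1 array per sample. The 18 samples are described as biologically distinct, and whether each is the blood of a single mouse is not stated in the sources used here. Cardiac puncture took the blood 6 hours after gamma rays from a cesium source (5 samples at 2 Gy, 6 at 8 Gy) or a sham exposure (7 samples at 0 Gy). No allele or agent other than the radiation is named for any group. The PAXgene kit purified the RNA of 2 samples at 0 Gy and 1 at 2 Gy, the RiboPure kit that of the other 15, and globin RNA was removed from all. The series looks for blood transcripts that mark radiation exposure.

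Nucleated cells show fragments of their own proteins to CD8 T cells on MHC class I molecules. The proteasome cuts the proteins, the Tap1 and Tap2 transporter pumps the peptides into the endoplasmic reticulum, and tapasin, the product of Tapbp, holds the empty heavy chain and B2m beside the transporter until a peptide binds. Interferon induces most of these genes together, and it also replaces the constitutive catalytic subunits Psmb6, Psmb7 and Psmb5 with Psmb9, Psmb10 and Psmb8, which changes the cuts that the proteasome makes. Leukocytes carry much class I on their surface, and platelets carry it too, while mature red cells have lost most of it. MHC class II molecules, by contrast, are made mainly by B cells and other antigen-presenting cells.

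The class I heavy chain genes resemble each other closely, so the sequences of the probes bear on what each value measures. The probes below are shown 5′ to 3′ in lower case as the files give them, with capitals for the longest run of 15 bases or more shared with a probe of another named gene. For H2-K1 these are the probes other than the one that stands for the gene in the tests, and the capitals mark 16 bases shared with a probe of H2-Bl and 20 shared with one of H2-Q10. In the Psmb8 probe they mark 15 bases shared with a probe of Clec14a.
H2-K1, A_52_P474242: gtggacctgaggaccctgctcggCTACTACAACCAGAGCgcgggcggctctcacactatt
H2-K1, A_52_P50496: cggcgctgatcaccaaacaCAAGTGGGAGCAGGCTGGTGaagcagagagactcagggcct
H2-D1, A_51_P496996: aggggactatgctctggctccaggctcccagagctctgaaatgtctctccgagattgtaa
Tap1, A_51_P100327: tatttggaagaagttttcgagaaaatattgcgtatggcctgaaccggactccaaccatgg
Psmb8, A_51_P345366: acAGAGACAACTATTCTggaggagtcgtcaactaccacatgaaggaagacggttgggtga
Psmb9, A_51_P369803: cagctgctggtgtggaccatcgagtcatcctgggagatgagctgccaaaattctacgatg

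No run of 15 bases or more was shared between the H2-D1 probe shown and any other gene's probe on the array. The H2-K1 probe that stands for its gene shared a run of 25 bases with a probe that has no gene name, and the Psmb9 probe 15 bases with another such probe. RNA of 1 heavy chain gene may still bind a probe of another, and their signals are uncertain to that extent. A further probe, A_52_P246277, is named H2-D1 in the files but described there as thymus leukemia antigen. It was well above background on 2 of 18 arrays, was dropped by the filter and is not used for H2-D1.

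On the positions in the files (mouse build mm7), 7 of the genes lie on chromosome 17, in and beside the MHC. The probes that stand for them are at 32074445 to 32074504 for H2-K1, 33361850 to 33362082 for H2-D1, 32273751 to 32273810 for Tap1, 32294682 to 32295269 for Tap2, 32007107 to 32007166 for Tapbp, 32280725 to 32281049 for Psmb8 and 32262147 to 32262206 for Psmb9. The B2m probe is on chromosome 2 at 121893518 to 121893577 and the Psmb10 probe on chromosome 8 at 104534632 to 104534691. Positions of H2-D1, Tap2 and Psmb8 cover more than the 60 bases of a probe. These probes were well above background on all 18 arrays and saturated on none.

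The regions before the start sites show how alike the heavy chain genes are and how close Psmb9 and Tap1 lie. Stretches of 120 bases from RefSeq on build GRCm38.p6 are given for H2-K1 (chr17:34000384-34000503, minus strand) and H2-D1 (chr17:35262878-35262997, plus strand), lined up on the only match to the NF-kB motif GGGNNTTCC in each window, which starts at -111 from the start site listed for H2-K1 and at -171 from that for H2-D1. The B2m stretch (chr2:122147503-122147622, plus strand) holds the only match of its window to the interferon-stimulated response element, searched as GAAA, any 2 bases and GAAA, which starts at -139. Capitals mark those matches. The fourth sequence is the whole gap of 225 bases between the divergent start sites of Psmb9 and Tap1 (chr17:34187331-34187555, read on the Tap1 strand).
H2-K1: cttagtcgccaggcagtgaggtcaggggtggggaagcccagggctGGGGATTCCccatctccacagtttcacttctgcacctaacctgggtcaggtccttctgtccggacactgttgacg
H2-D1: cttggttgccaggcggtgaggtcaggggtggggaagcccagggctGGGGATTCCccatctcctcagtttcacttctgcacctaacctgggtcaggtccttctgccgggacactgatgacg
B2m: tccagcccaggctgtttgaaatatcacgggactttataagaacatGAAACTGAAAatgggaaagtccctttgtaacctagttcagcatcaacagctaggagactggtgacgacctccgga
Psmb9-Tap1 gap: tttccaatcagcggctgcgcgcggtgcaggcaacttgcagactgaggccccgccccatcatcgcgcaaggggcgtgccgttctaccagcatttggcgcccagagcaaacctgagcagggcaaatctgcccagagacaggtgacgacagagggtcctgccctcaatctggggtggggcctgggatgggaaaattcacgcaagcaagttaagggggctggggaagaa

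The H2-K1 and H2-D1 stretches are identical at 113 of 120 positions (94.2%). A window of 300 bases (250 before the start site and 50 after it) was at hand for 8 of the 9 genes, and each was searched on both strands. The NF-kB motif was in the windows of H2-K1 and H2-D1 alone among the 8, against 5.70% of 27025 windows of all genes. Both matches lie in these near-identical stretches, so they do not count as independent. An exact match to the pattern searched for the interferon-stimulated element was in the B2m window alone, against 3.49% of all windows. Forms that differ from that pattern were not searched, so the other windows may still hold such an element. TTCNNNGAA, the gamma-activated site, was in the Psmb8 window alone, at -97, against 8.43%. The common CCAAT box was in 6 of the 8 windows, those of Psmb8 and Psmb10 lacking it, against 38.0% of all windows. The Psmb9 match (-8) and the Tap1 match (-222) are the same bases of the gap printed above. The 8 windows are therefore not independent of each other. Matches to different motifs do not overlap, and a match is only a run of letters.

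The arrays differed in brightness and not all behaved alike. The 75th percentile of signal, on which the levels below are based, was 138 to 425 intensity units at 0 Gy, 46.4 to 186 at 2 Gy and 58.4 to 232 at 8 Gy, and from 15458 to 24450 probes were well above background. There were 8 slides and 7 scan days. The array labelled 0 Gy replicate 5 had a log2 level of 1.28 for Cdkn1a, a p53 target that radiation induces, against -4.08 to -1.46 on the other 0 Gy arrays and -0.30 to 2.67 on the irradiated ones. Median correlations with the other arrays were 0.832 for 0 Gy replicate 4 and 0.844 for 2 Gy replicate 3, against 0.908 to 0.953 for the rest. Results are also given without these 3 arrays where that matters. Blood markers were present: the summed linear level of 18 erythroid markers was 4536 to 9976 times the 75th percentile at 0 Gy and that of 18 neutrophil markers 646 to 3130. Levels below are log2 of the signal relative to the array's 75th percentile, and changes are log2 fold changes from a limma model with dose and kit as terms, adjusted over 13264 genes, with their standard errors.

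After 8 Gy, 0 of the 9 class I pathway genes passed the threshold of an adjusted p of 0.05, while 11.9% of all genes tested did, 7.64% higher and 4.31% lower. The fitted changes of the 9 genes ran from -0.36 for Psmb10 to 0.67 for B2m, with a median of 0.22 beside 0.08 for all genes, and 7 were above 0. An unadjusted p under 0.05 was reached by 1 of the 9 and by 33.2% of all genes. With the main scaling, the 95% interval excluded a change of 2-fold in either direction for 8 of the 9 genes, the exception being B2m. This did not hold under every processing. A 2-fold fall of Psmb10 was not excluded with quantile normalization (-0.75 ± 0.24) or the values of the authors' deposited table (-0.73 ± 0.24). With normexp background correction it was not excluded for Psmb10 (-0.96 ± 0.30), Psmb8 (-0.73 ± 0.30) or H2-K1 (-0.45 ± 0.32). With the array's brightness as a covariate, a 2-fold rise of Tap1 was not excluded (0.49 ± 0.33). Other settings are not listed in full. Standard errors with the main scaling were 0.19 to 0.29, so changes smaller than 2-fold in these genes may have gone undetected. In whole blood, fewer cells of a type and less RNA per cell cannot be told apart.

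**Figure D1:**
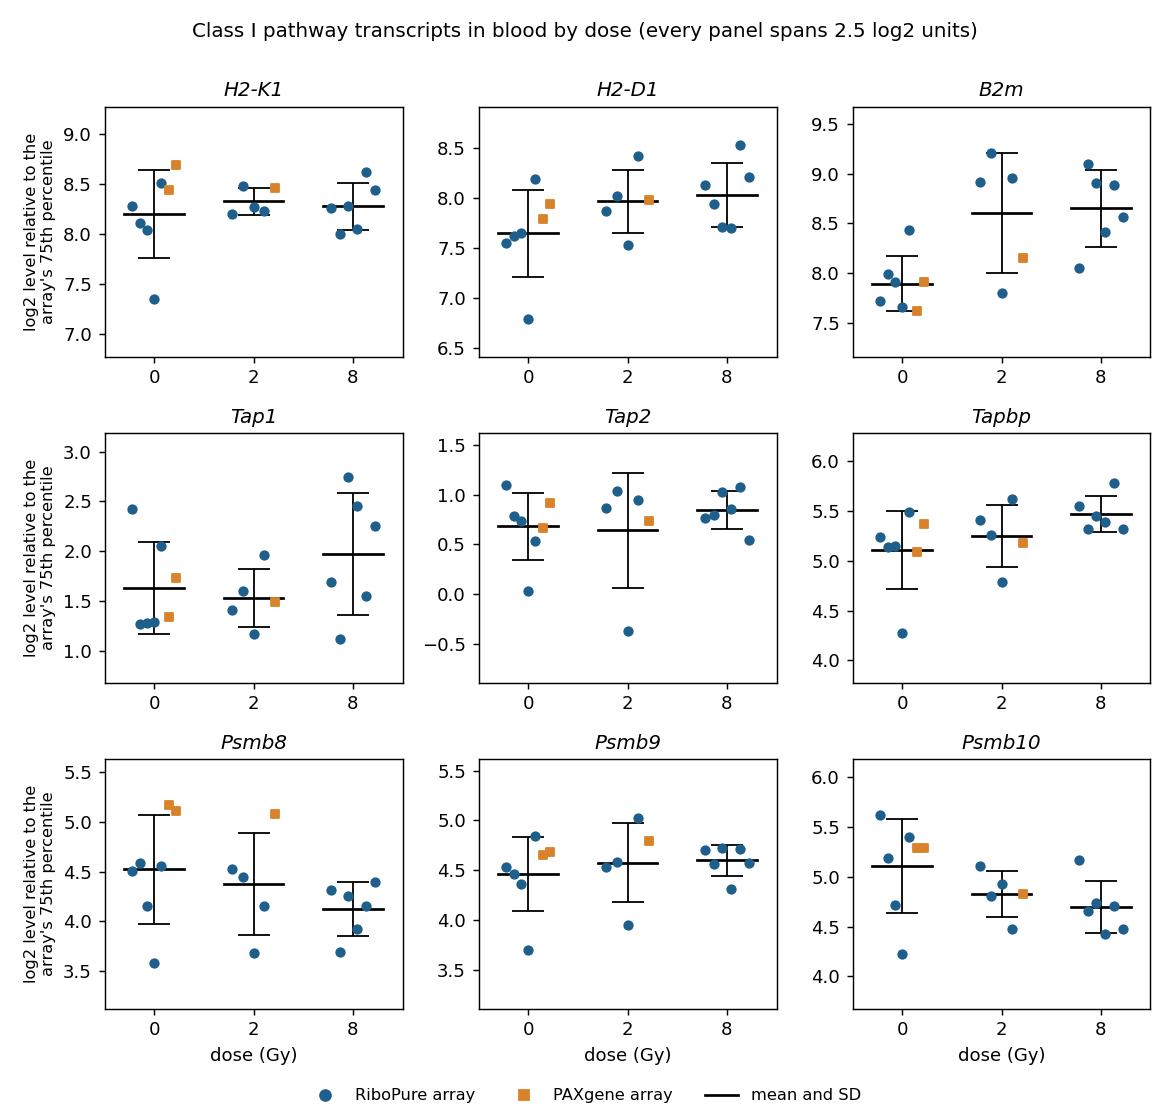
Level of each of the 9 genes on every array by dose (Gy), as log2 relative to the array's 75th percentile, with circles for RiboPure arrays, squares for PAXgene arrays and lines for the mean and SD of each dose. Only B2m has more than 2 arrays at 8 Gy above its highest 0 Gy array (4 of 6), and Psmb8 shows its 3 PAXgene arrays on top.

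B2m is the light chain that every classical class I molecule needs to leave the endoplasmic reticulum, and it had the largest fitted change. Its level was 7.62 at the lowest, 7.91 at the median and 8.43 at the highest of 7 arrays at 0 Gy. The 2 Gy arrays read 8.91, 9.21, 7.80, 8.96 and 8.15, and the 8 Gy arrays 8.05, 8.72 and 9.09 (lowest, median and highest of 6). Above the highest 0 Gy array lay 4 of the 6 arrays at 8 Gy and 3 of the 5 at 2 Gy. The groups overlapped. The change was 0.67 ± 0.25 after 8 Gy (1.59-fold, 95% interval 1.10 to 2.28, adjusted p = 0.0789) and 0.68 ± 0.25 after 2 Gy (1.61-fold, 1.12 to 2.31, adjusted p = 0.168), and neither passed. A second probe in the same stretch of the gene, A_51_P129006, gave 0.74 ± 0.28 after 8 Gy (limma adjusted p = 0.0861 over 22038 probes), whereas A_52_P105594, which comes from a cDNA that the files call unclassifiable, gave 0.09 ± 0.25.

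The call for B2m was close to the threshold. Its 8 Gy change passed without the kit term (0.76, adjusted p = 0.0424) and on leaving out the array 0 Gy replicate 5 (0.76, 0.0436), 2 Gy replicate 3 (0.64, 0.0452) or 8 Gy replicate 1 (0.79, 0.0351), and over the other settings its adjusted p ran up to 0.979. With quantile normalization the change was 0.01 (adjusted p = 0.977), with the values of the authors' deposited table it was 0.01 and with normexp background correction 0.04. Within the slide that holds 2 arrays at 8 Gy and 1 at 0 Gy it was 0.93, and within the scan day that holds 1 of each it was 0.13. Within the 3 slides that hold both 2 Gy and 0 Gy arrays it was 1.07, 0.53 and -0.64, the last from 2 Gy replicate 3 against 0 Gy replicate 5.

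H2-K1 encodes the K heavy chain, a main restricting element of CD8 T cell responses. Its levels were 7.35, 8.28 and 8.69 (lowest, median and highest) at 0 Gy and 8.00, 8.27 and 8.62 at 8 Gy, and 8.20, 8.48, 8.27, 8.23 and 8.46 at 2 Gy. No irradiated array exceeded the highest 0 Gy array, and all but the lowest 0 Gy array lay among the irradiated ones or above them. The change was 0.18 ± 0.19 after 8 Gy (adjusted p = 0.526) and 0.16 ± 0.19 after 2 Gy (0.660). The probes printed above gave 0.24 ± 0.17 (A_52_P474242) and 0.04 ± 0.24 (A_52_P50496) after 8 Gy.

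H2-D1 encodes the D heavy chain, the other classical class I molecule of this strain. Its levels were 6.79, 7.65 and 8.19 at 0 Gy (lowest, median and highest), 7.87, 8.02, 7.53, 8.42 and 7.99 at 2 Gy, and 7.70, 8.03 and 8.54 at 8 Gy. All 6 arrays at 8 Gy lay above the 0 Gy median, but only 2 exceeded its highest array. The change was 0.45 ± 0.23 after 8 Gy (1.36-fold, 95% interval 0.973 to 1.91, adjusted p = 0.185) and 0.34 ± 0.23 after 2 Gy (adjusted p = 0.402), and neither passed.

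Tap1 and Tap2 encode the chains that pair to form the peptide transporter. Tap1 spread widely, with 1.27, 1.34 and 2.43 (lowest, median and highest) at 0 Gy, 1.41, 1.60, 1.17, 1.96 and 1.49 at 2 Gy, and 1.13, 1.97 and 2.74 at 8 Gy. The 8 Gy arrays reached both above and below the 0 Gy range, with 2 above and 1 below. The Tap1 change was 0.31 ± 0.29 after 8 Gy (adjusted p = 0.469) and -0.11 ± 0.29 after 2 Gy (0.855). Tap2 read 0.03, 0.74 and 1.10 at 0 Gy, 0.86, 1.04, -0.37, 0.95 and 0.74 at 2 Gy, and 0.54, 0.82 and 1.08 at 8 Gy. One 2 Gy array, replicate 3, lay far below the other 4, and the 8 Gy arrays lay within the 0 Gy range. The Tap2 change was 0.21 ± 0.24 after 8 Gy (adjusted p = 0.574) and -0.03 ± 0.24 after 2 Gy (0.965), or 0.22 after 2 Gy without replicate 3 (0.449).

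Tapbp encodes tapasin, which bridges the transporter and the heavy chain. Its levels were 4.28, 5.15 and 5.48 at 0 Gy (lowest, median and highest), 5.41, 5.26, 4.79, 5.62 and 5.18 at 2 Gy, and 5.32, 5.42 and 5.78 at 8 Gy. All 6 arrays at 8 Gy lay above the 0 Gy median, and 2 lay above its highest array. The change was 0.38 ± 0.21 after 8 Gy (1.31-fold, 95% interval 0.966 to 1.76, adjusted p = 0.200) and 0.15 ± 0.21 after 2 Gy (0.699). Its second probe, A_52_P684830, gave 0.36 ± 0.26 after 8 Gy and -0.10 ± 0.26 after 2 Gy.

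The fitted changes of the 3 immunoproteasome subunits had both signs, and none passed. Psmb9, or beta1i, read 3.70, 4.53 and 4.84 at 0 Gy (lowest, median and highest), 4.53, 4.59, 3.96, 5.02 and 4.79 at 2 Gy, and 4.31, 4.64 and 4.73 at 8 Gy. No array at 8 Gy and 1 at 2 Gy exceeded the highest 0 Gy array. The Psmb9 change was 0.22 ± 0.20 after 8 Gy (adjusted p = 0.479) and 0.14 ± 0.20 after 2 Gy (0.721). Psmb10, or beta2i, read 4.23, 5.29 and 5.62 at 0 Gy, 5.11, 4.81, 4.93, 4.48 and 4.82 at 2 Gy, and 4.43, 4.68 and 5.17 at 8 Gy. All 11 irradiated arrays lay below the 0 Gy median, yet within its range. The Psmb10 change was -0.36 ± 0.22 after 8 Gy (0.777-fold, 95% interval 0.560 to 1.08, adjusted p = 0.267) and -0.26 ± 0.22 after 2 Gy (0.508).

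Psmb8, or beta5i, had its highest values on the arrays of 1 extraction kit. Its levels were 3.58, 4.55 and 5.17 at 0 Gy (lowest, median and highest), 4.53, 4.45, 3.69, 4.15 and 5.08 at 2 Gy, and 3.69, 4.21 and 4.40 at 8 Gy. The 3 PAXgene arrays, of which none is at 8 Gy, held the highest values, 5.08 to 5.17, against at most 4.59 on any RiboPure array. The kit term was 0.87 ± 0.24 (PAXgene less RiboPure, adjusted p = 0.0559), the largest in size of the 9 genes. With that term in the model the change was -0.15 ± 0.21 after 8 Gy (adjusted p = 0.647) and -0.07 ± 0.21 after 2 Gy (0.877). Without it the 8 Gy change was -0.40, and on the RiboPure arrays alone -0.15. The other probe of the gene, A_51_P345367, gave -0.16 ± 0.22 after 8 Gy.

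After 2 Gy, 0 of 9 genes passed, beside 0.0528% of all genes tested (7 of 13264), 0.0302% higher and 0.0226% lower. An unadjusted p under 0.05 was reached by 1 of the 9, B2m, and by 20.4% of all genes. With every probe on its own, 0 of the 15 probes of these genes passed in limma at either dose, beside 10% of 22038 probes after 8 Gy and 0.0862% after 2 Gy. The median of the 9 was 0.14, beside 0.06 for all genes, and their changes ran from -0.26 to 0.68. Between the doses, 8 Gy against 2 Gy, 0 of 9 passed in limma, beside 0% of all genes, 0 of the 9 reached an unadjusted p under 0.05, and 3.14% of all genes did. There the changes ran from -0.10 for Psmb10 to 0.42 for Tap1, with a median of 0.08 beside 0.05. The 2 dose comparisons with 0 Gy share the same control arrays.

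The sign of several changes depended on the scaling of the arrays. With quantile normalization the median change of all genes after 8 Gy went from 0.08 to -0.02, whereas that of the 9 genes went from 0.22 to -0.12. H2-K1 then read -0.41, H2-D1 -0.17, Tapbp -0.03 and Psmb9 -0.12, Tap1 and Tap2 kept 0.22 and 0.18, and Psmb8 and Psmb10 read -0.47 and -0.75. Normexp background correction gave -0.45 for H2-K1 and -0.96 for Psmb10, whose adjusted p of 0.0409 was the only one of the 9 to pass under it. For H2-K1, H2-D1, Tapbp and Psmb9 the direction therefore depended on the scaling, and Psmb10 lay below 0 under each of these.

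**Figure D2:**
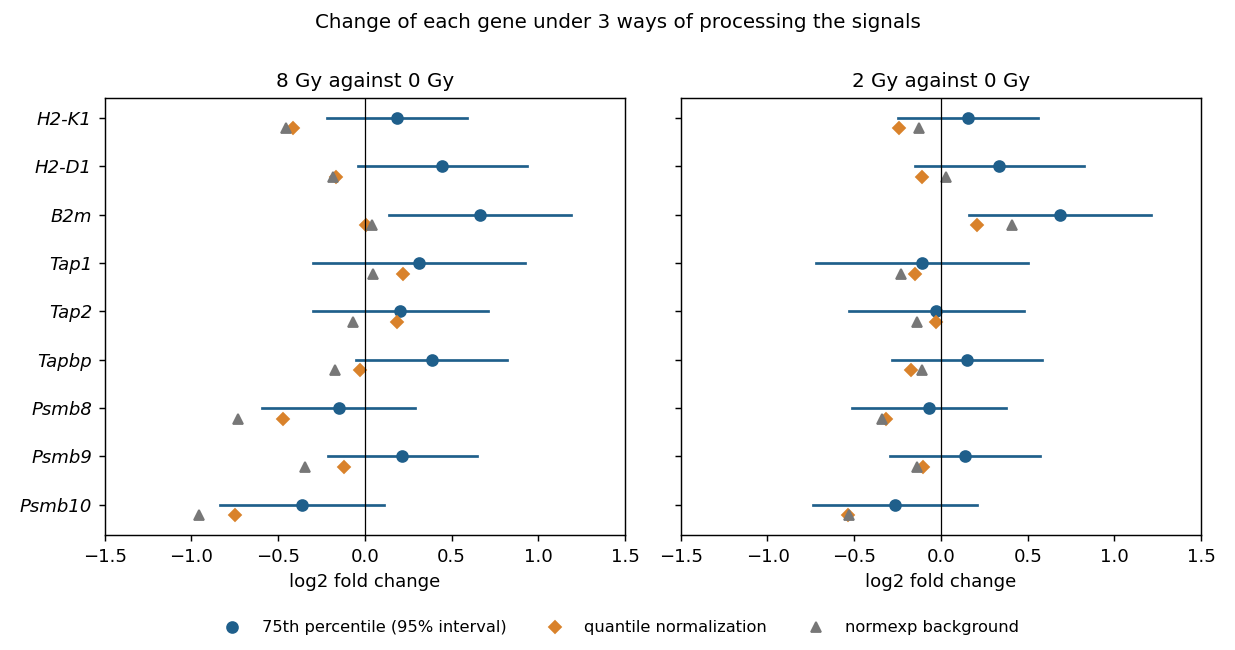
Log2 fold change of the 9 genes after 8 Gy (left) and 2 Gy (right) against 0 Gy, as circles with the 95% interval for scaling by the 75th percentile, diamonds for quantile normalization and triangles for normexp background correction. For H2-K1, H2-D1, Tapbp and Psmb9 after 8 Gy the circle lies above 0 and the other marks below it, while Psmb10 lies below 0 throughout.

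A difference between a pair of genes on the same array is not altered by a single scaling factor for that array, though quantile normalization and background correction can alter it. Its change with dose was compared by a 2-sided exact permutation test for each pair and comparison (21 tests, adjusted together). Only the change is read, since probes differ in how well they bind. Psmb9 less the subunit it replaces, Psmb6, was 1.30 ± 0.34 (SD, n = 7) at 0 Gy and 1.85 ± 0.45 (n = 6) at 8 Gy. That is a change of 0.56 ± 0.22 (exact permutation p = 0.0303, adjusted 0.212), with 4 of 6 arrays above every 0 Gy array. Psmb10 less Psmb7 was 2.87 ± 0.54 at 0 Gy and 2.32 ± 0.29 at 8 Gy, a change of -0.56 ± 0.23 (exact permutation p = 0.0501, adjusted 0.263), and no 8 Gy array lay outside the 0 Gy range. These tests have no kit term. On the RiboPure arrays alone the Psmb9 pair changed by 0.41 ± 0.22 and the Psmb10 pair by -0.50 ± 0.31. Psmb8 less Psmb5 changed by -0.25 ± 0.23 (exact permutation p = 0.304, adjusted 0.638), and by -0.031 ± 0.22 on the RiboPure arrays alone. None of the 3 passed, and without 0 Gy replicate 4 the Psmb10 pair changed by -0.74 with an adjusted p of 0.0455 in the exact permutation test.

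Among the surface chains, H2-K1 less B2m was 0.31 ± 0.42 (SD, n = 7) at 0 Gy and -0.37 ± 0.45 (n = 6) at 8 Gy. The change was -0.68 ± 0.24 (exact permutation p = 0.0175, adjusted 0.184), with 3 of 6 arrays below every 0 Gy array. At 2 Gy the 5 arrays read -0.71, -0.73, 0.47, -0.73 and 0.31, a change of -0.59 ± 0.32 (exact permutation p = 0.0770, adjusted 0.323). H2-K1 less H2-D1 had the smallest spread, 0.55 ± 0.17 at 0 Gy and 0.24 ± 0.19 at 8 Gy, a change of -0.32 ± 0.10 (exact permutation p = 0.0140, adjusted 0.184) with 4 of 6 arrays below every 0 Gy array. H2-D1 less B2m changed by -0.37 ± 0.24 after 8 Gy (exact permutation p = 0.135) and Tap1 less Tap2 by 0.18 ± 0.30 (exact permutation p = 0.548). On the RiboPure arrays alone these were -0.23 and 0.095, while H2-K1 less B2m changed by -0.49 ± 0.23 and H2-K1 less H2-D1 by -0.26 ± 0.11. The adjusted p of the latter pairs was then 0.527 in the exact permutation test. With the mean of all probes of a gene, H2-K1 less B2m changed by -0.44 after 8 Gy and -0.25 after 2 Gy, and H2-D1 less B2m by -0.12 after 8 Gy. None of the 21 tests passed after adjustment.

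**Figure D3:**
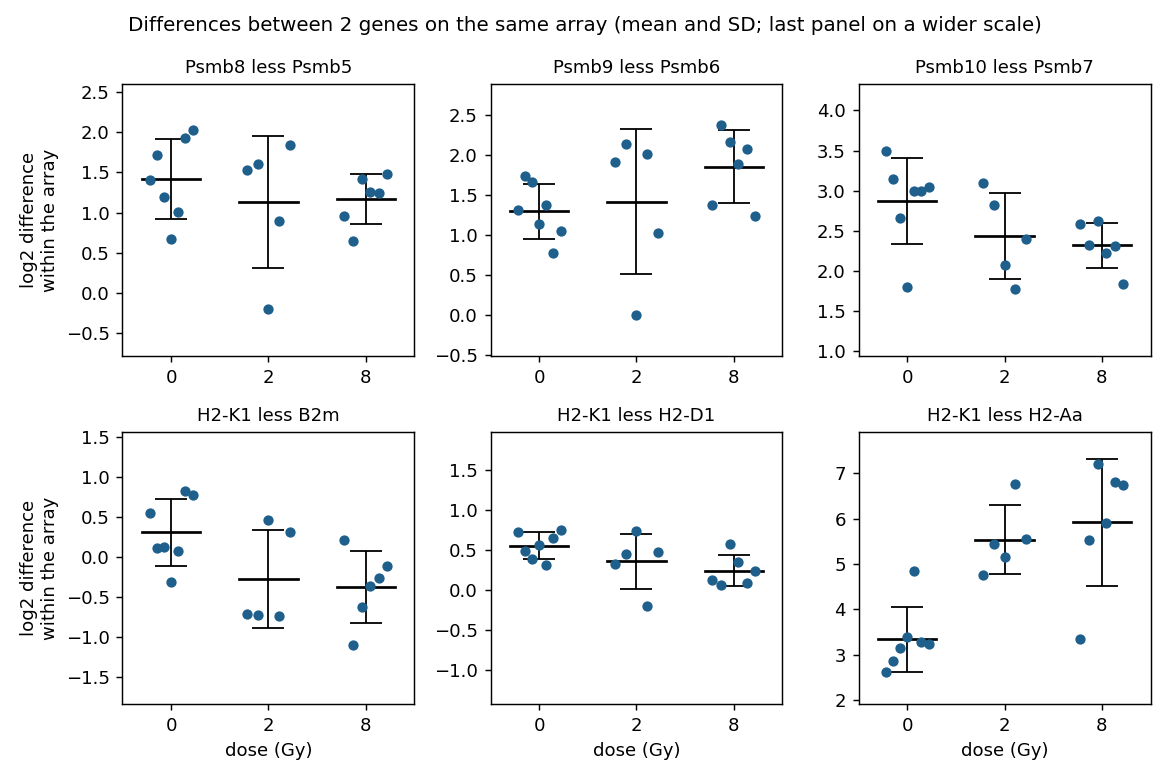
Log2 difference between a pair of genes on each array by dose (Gy), with the mean and SD; the panel of H2-K1 less H2-Aa spans a wider scale than the others. Psmb9 less Psmb6 lies higher at 8 Gy and Psmb10 less Psmb7 lower without passing the adjusted test, and H2-K1 less H2-Aa lies above all 0 Gy arrays in 5 of 6 arrays at 8 Gy.

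Class I and class II transcripts parted on the same arrays. H2-K1 less H2-Aa, a class II alpha chain, was 3.34 ± 0.71 (SD, n = 7) at 0 Gy. It was 4.76, 5.45, 5.15, 6.77 and 5.54 at 2 Gy, and 3.36 at the lowest and 7.21 at the highest of 6 arrays at 8 Gy. The change was 2.19 ± 0.43 after 2 Gy (exact permutation p = 0.00253) and 2.58 ± 0.63 after 8 Gy (exact permutation p = 0.00466), both adjusted over 9 tests to 0.00758 and 0.00787. H2-K1 less Cd74, the invariant chain of class II, changed by 2.01 ± 0.38 and 2.14 ± 0.57, and Tapbp less H2-DMa, the class II peptide-loading chain, by 1.32 ± 0.32 and 1.92 ± 0.41. In the exact permutation test their adjusted p was 0.00758 and 0.00787 after 2 and 8 Gy for Cd74, and 0.00787 and 0.00758 for H2-DMa. These 9 tests were chosen after the values were seen, so the fall of class II was known. Their p-values are therefore no independent support for it. Within slides the H2-K1 less H2-Aa change was 3.93 (8 Gy) and 2.23, 2.26 and 0.31 (2 Gy), the last from 2 Gy replicate 3 against 0 Gy replicate 5. Between 8 and 2 Gy the change was 0.38 ± 0.66 (exact permutation p = 0.602).

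In single genes, 9 of 9 tested class II genes fell after 8 Gy, with a median of -2.00, beside 0 of 9 class I pathway genes. B cell markers fell in 18 of 19, with a median of -3.08, and the range of their summed linear level was 229 to 991 at 0 Gy, 44.5 to 221 at 2 Gy and 38.6 to 483 at 8 Gy. Some, named here for their dim signal, neared the floor of the arrays. Ebf1, Pax5, Blk and Cd79a were well above background on 6, 6, 7 and 7 arrays at 0 Gy and on 3, 3, 2 and 3 at 8 Gy. The size of their fall is therefore uncertain. Others, such as Cd79b and Ms4a1, were well above background on all 18 arrays. Neutrophil markers rose in 17 of 18 (median 2.31), and their sum was 646 to 3130 at 0 Gy, 1404 to 6131 at 2 Gy and 2227 to 4856 at 8 Gy. Of the other cell types, 2 of 24 T cell markers fell, including Ccr7 (-1.51 ± 0.31, adjusted p = 0.0135) and Cd8b1, the CD8 coreceptor chain that binds class I (-1.31 ± 0.33, 0.0256). None of 16 NK and cytotoxic markers passed, 1 of 18 monocyte markers rose (Fcgr4, 1.62 ± 0.36, adjusted p = 0.0180), 2 of 18 erythroid markers rose (Epor and Tal1) and 7 of 19 platelet markers rose (median 0.99). Over all genes 7.64% rose and 4.31% fell, so the T cell, monocyte and erythroid counts were near those of genes at large. The medians of these lists were -0.31, 0.32 and 0.85, beside 0.08 for all genes. Every erythroid marker tested had a fitted change above 0, the lowest being 0.24. As each array was left out, the platelet count was 0 for 0 Gy replicates 1, 2 and 4, 2 Gy replicate 5 and 8 Gy replicates 2 to 6, at most 3 for 0 Gy replicates 3, 6 and 7 and 2 Gy replicates 1 and 2, and 11, 14 and 16 for 2 Gy replicate 3, 8 Gy replicate 1 and 0 Gy replicate 5. It was 0 with quantile normalization. Leaving out an array also moved the smaller counts. Erythroid markers that rose numbered 4, 6 and 7 without 2 Gy replicate 3, 8 Gy replicate 1 and 0 Gy replicate 5, 2 without 2 Gy replicate 2 or 4, and at most 1 without any other array. T cell markers that fell numbered 3 without 0 Gy replicate 4 or 2 Gy replicate 3, and 4 without 8 Gy replicate 1. Only 1 fell on leaving out 0 Gy replicate 1 or 2 or any of 8 Gy replicates 3 to 6. Leaving out 0 Gy replicate 5 let 4 NK and 3 monocyte markers rise, 0 monocyte markers rose without 0 Gy replicate 1, and 1 fell without 2 Gy replicate 3. The summed platelet level was 1778 to 7078 at 0 Gy, 3272 to 9962 at 2 Gy and 4353 to 9451 at 8 Gy. After 2 Gy, 0 genes of these lists passed in limma, with medians of -2.47 for B cell and 1.49 for neutrophil markers, but leaving out 0 Gy replicate 5 let 18 B cell markers and 6 class II genes fall and 12 neutrophil markers rise. The part of this shift in cell types in the values of the 9 genes was not tested.

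On leaving out 0 Gy replicate 4, then 0 Gy replicate 5, then 2 Gy replicate 3, 18 of 19 B cell markers fell in each case, 8, 9 and 9 class II genes fell, and 12, 17 and 17 neutrophil markers rose. Leaving out 0 Gy replicate 1 gave 11 B cell markers, 2 class II genes and 9 neutrophil markers, and 0 Gy replicate 2 gave 12, 2 and 10. Class II counts of 3 to 6 came from leaving out 0 Gy replicates 3 and 7, 2 Gy replicate 5 and each of 8 Gy replicates 2 to 6, and neutrophil counts of 9 to 11 from 8 Gy replicates 3, 4 and 6. With the slide as a random block the counts were 16, 5 and 13, and with the slide as a fixed block or the array's brightness as a covariate they were 0, with medians of -2.83 and -2.41 for B cell markers.

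**Figure D4:**
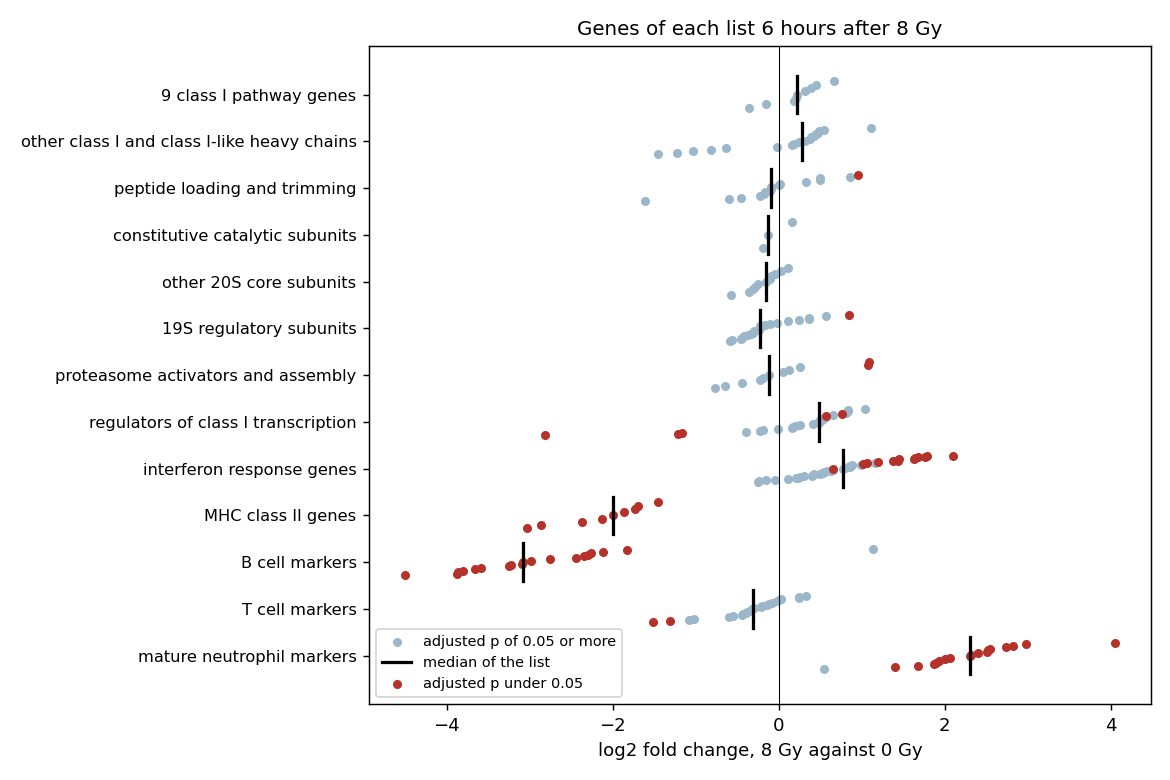
Log2 fold change after 8 Gy against 0 Gy of each tested gene of 13 lists, 1 point per gene, dark for an adjusted p under 0.05 and light for the rest, with a bar at the median of each list. The 9 class I pathway genes and the proteasome lists lie near 0, while the class II, B cell and neutrophil lists lie to either side of it.

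The other class I and class I-like heavy chains present peptides or lipids to more specialised cells or serve as transport receptors. Of 33 listed, 24 were on the array and 18 were tested. After 8 Gy, 0 of 18 passed, beside 11.9% of all genes, with a median of 0.28. H2-M3, which presents formylated peptides, was nearest to the threshold (-0.82 ± 0.26, adjusted p = 0.0502), followed by H2-T24 (1.11 ± 0.37, 0.0573). H2-Q2 read 0.55 ± 0.23 and Cd1d1, which presents lipids, -1.03 ± 0.46. Without 0 Gy replicate 5, 3 rose and 1 fell, without 2 Gy replicate 3, 1 rose and 3 fell, and without 8 Gy replicate 1, 1 rose and 2 fell. Leaving out 2 Gy replicate 4 gave 1 in each direction, and 0 Gy replicate 4 let 1 fall. How far RNA of neighbouring heavy chain genes binds these probes was not tested.

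Of 16 genes of peptide loading and trimming, 1 rose and 15 did not pass after 8 Gy (median -0.09). Over all genes 7.64% rose and 4.31% fell, so the number rising was near that of genes at large. The one that rose was Sec61g, a subunit of the channel through which proteins enter the endoplasmic reticulum (0.96 ± 0.28, adjusted p = 0.0425). Lnpep, an aminopeptidase that trims peptides in endosomes, read 0.86 ± 0.29 (adjusted p = 0.0606), and Erap1, which trims them in the endoplasmic reticulum, -0.45 ± 0.20 (0.132). The trimming peptidase Lap3 read -1.60 ± 0.70 (0.122). The Sec61g call was lost with quantile normalization and with the slide as a random block, under which 0 of 16 passed. The number rising was 1 without 0 Gy replicate 3 or 2 Gy replicate 4, 2 without 0 Gy replicate 5, 2 Gy replicate 3 (where 1 also fell) or 8 Gy replicate 1, and 0 without any other array.

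Most proteasome genes outside the immunoproteasome did not pass. The 3 constitutive catalytic subunits read 0.16 ± 0.18 (Psmb7), -0.19 ± 0.28 (Psmb6) and -0.13 ± 0.19 (Psmb5), and 0 of 3 passed. None of 11 other 20S core subunits passed (median -0.15), the nearest being Psma4 (-0.57 ± 0.21, adjusted p = 0.0722). Of 22 subunits of the 19S cap, which binds and unfolds ubiquitinated proteins, Psmd4, a ubiquitin receptor, rose (0.84 ± 0.25, adjusted p = 0.0407), and the median was -0.23. Of 11 activators and assembly factors 2 rose, Psme3, the nuclear activator PA28 gamma (1.09 ± 0.29, adjusted p = 0.0295), and Psmf1, an inhibitor of the proteasome (1.07 ± 0.30, 0.0375). Over all genes 7.64% rose and 4.31% fell, so the 19S count was near that of genes at large. The activator count rests on few genes and was not tested against that share. Psme1 and Psme2, the interferon-induced activator PA28 that works with the immunoproteasome, read 0.12 ± 0.16 (adjusted p = 0.624) and 0.05 ± 0.16 (0.855). They were chosen for this role after their values were seen. In these 4 lists, 0 genes rose and 0, 1, 0 and 0 fell with quantile normalization, in the order given. The rises among the activators were also lost, to 0, without 0 Gy replicate 1, 2 or 4, 2 Gy replicate 5 or any of 8 Gy replicates 3 to 6, and 1 was left without 0 Gy replicate 7 or 8 Gy replicate 2. The 19S rise was lost without any of these 10 arrays or 2 Gy replicate 1, while 2 rose without 0 Gy replicate 5, and 2 rose and 2 fell without 8 Gy replicate 1. Without that array 1 activator and 1 core subunit also fell, and without 0 Gy replicate 5, 1 core subunit. Among all 13264 genes, 2057 rose and 969 fell without 0 Gy replicate 5, and 1733 and 1141 without 8 Gy replicate 1.

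Of 27 tested regulators of class I transcription, 2 rose, 3 fell and 22 did not pass after 8 Gy (median 0.48), beside 7.64% higher and 4.31% lower over all genes, so the number rising was near that of genes at large. The 3 that fell serve class II or B cells and myeloid cells as well: Ciita, the class II transactivator (-2.82 ± 0.56, adjusted p = 0.0113), Irf8 (-1.16 ± 0.26, 0.0165) and Rfx5, a subunit of the factor that binds the X box of MHC promoters (-1.21 ± 0.38, 0.0495). Rfx5 was well above background on 5 arrays at 0 Gy, 0 at 2 Gy and 1 at 8 Gy, so it met the filter through the 0 Gy arrays. Its signal after irradiation was mostly not well above background, and the size of its fall is uncertain. The 2 that rose were Stat3 (0.76 ± 0.24, 0.0458) and Ifnar2, a chain of the type I interferon receptor (0.57 ± 0.18, 0.0479). Irf1, an interferon-induced activator of class I, Tap1 and Psmb9, lay at the threshold without passing it (0.81 ± 0.26, adjusted p = 0.0504). Nlrc5, the class I transactivator, was not measured here. The rises of Stat3 and Ifnar2 were lost with quantile normalization, which left 0 rising and 2 falling. The number rising was 6, 5, 4 and 4 without 0 Gy replicate 5, 2 Gy replicate 3, 2 Gy replicate 4 and 8 Gy replicate 1, and 0 without any other array, while 2 or 3 fell. Of all 13264 genes, 2057, 1433, 1207 and 1733 rose without the arrays named, in the same order, against 1013 with every array.

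Of 41 interferon response genes, 14 rose and 0 fell after 8 Gy, with a median of 0.78, beside 0 of the 9 class I pathway genes. Over all genes 7.64% rose and 4.31% fell. Ifit3 rose by 2.10 ± 0.49 (adjusted p = 0.0202), Oas2, a sensor of double-stranded RNA, by 1.79 ± 0.40 (0.0173), Rtp4 by 1.68 ± 0.36 (0.0145) and the GTPase Mx1 by 1.44 ± 0.33 (0.0203). The difference between these lists was not tested. As each array was left out, the count was 1 for 0 Gy replicate 1, 22 for 0 Gy replicate 5, and 4 to 7 for the arrays numbered 2, 4 and 6 at 0 Gy, 1 and 5 at 2 Gy and 2 to 6 at 8 Gy. Of all 13264 genes, 164 rose without 0 Gy replicate 1 and 2057 without 0 Gy replicate 5. The interferon count was 9 with quantile normalization and 6 with the slide as a random block. After 2 Gy, 0 of 41 passed, with a median of 0.47.

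Across the 18 arrays, the genes whose levels followed each member most closely differed from member to member. For H2-D1 they were the class I heavy chains H2-Q2 (r = 0.974), H2-T23 (0.933) and H2-Q10 (0.923). Those of B2m included Vdac3 (0.942) and Gm5148 (0.935). For H2-K1 the highest r was lower, 0.854 with Phf5a, followed by Urm1 (0.846) and H2ax (0.841). Tap1 was nearest to Bud31 (0.918), Mitd1 (0.908) and Samhd1 (0.904), and Tap2 to Abcc1 (0.925), Mcm4 (0.923) and Mgst2 (0.917). Tapbp was nearest to Scamp2 (0.936), Pak2 (0.931) and Mapkapk3 (0.925). Psmb8 was nearest to Rpl18 (0.939), Cdkn2aipnl (0.912) and Skap1 (0.911), Psmb9 to genes that included Alkbh4 (0.913) and Twf2 (0.896), and Psmb10 to Ehmt2 (0.910), Ccdc28b (0.887) and Ddx31 (0.884). No member was among the 3 nearest genes of another. These values share the arrays, their scaling and their brightness, and they are given as a description.

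Between the members themselves, 34 of 36 pairs correlated above 0, with a median r of 0.41 over the 18 arrays and of 0.50 within doses. The closest were H2-D1 with Tapbp (0.88), Tapbp with Psmb9 (0.85) and H2-D1 with Psmb9 (0.84). The pairs below 0 were B2m with Psmb10 (-0.35) and B2m with Psmb8 (-0.20). The array labelled 0 Gy replicate 4 was the lowest of its group for 7 of the 9 genes, and so was 2 Gy replicate 3, while 0 Gy replicate 5 was the highest of its group for 4.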

How the data were processed

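The intensities used were those that the authors deposited as scanner files of 18 Agilent 1-colour arrays, made per the file headers with Feature Extraction 9.5.3.1. The authors also deposited intensities on a linear scale as a table, with its making not given in the sources used here. Its 18 columns had medians of 20.7 intensity units, as between-array quantile normalization leaves, and whether background was subtracted is unknown. Its log2 values served as an alternative. Of limma, per the submitters' processing notes, only the name is given.

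From the log2 processed signal, each probe's mean over its spots (outlier spots left out) less the array's 75th percentile was used. The filter kept probes that 5 of 18 arrays or more showed well above background, and the probe of highest mean stood for its gene. A model of dose and kit over the 18 arrays used R 4.3.3 with limma 3.58.1 (statmod 1.5.0, version 1.17.8 of data.table), with Benjamini-Hochberg adjustment over all genes and a threshold of 0.05. The fit was tested on simulated data. Errors beside changes are standard errors, those beside means standard deviations. Within-array differences were compared by exact 2-sided permutation tests. Alternatives were quantile normalization, normexp with an offset of 50, the deposited table, other filters, kit, slide, scan day and replicate terms, other probe rules and leaving out each array. Brightness as a covariate, the slide as a fixed block, list counts without single arrays and pairs with class II genes were added after the values were seen. The genes and lists were chosen with earlier results of these data known. Named were all 9 members, up to 4 genes of each pathway list and 2 of each cell type list with the smallest p after 8 Gy, the 3 genes most like each member, and those said to be chosen later. A few genes that this rule names are not reported here. Gene names came from RefSeq's table by accession for 23071 probes and by symbol for 9650, and from the files for 826 and the 16 probes of the 9 genes; 7611 probes had none. Array positions are on mm7 and promoter windows are RefSeq's on GRCm38.p6. The number of arrays limits the precision.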

Additional observations from a re-analysis of the deposited data

Results flagged for a closer look

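In 3 of the 27 groups formed by 9 genes and 3 doses, 1 array lay apart from the others by Dixon's test at the 95% level, where chance gives about 1 in 20 groups. Tap2 read -0.37 on 2 Gy replicate 3, against 0.74 to 1.04 on the other 4 arrays of that dose. Tapbp read 4.28 on 0 Gy replicate 4, against 5.09 to 5.48 on the other 6, and Psmb9 read 3.70 on the same array, against 4.36 to 4.84.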

How the results depend on the processing

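After 8 Gy, the number of the 9 genes that passed was 1 with normexp background correction (Psmb10) and 1 without the kit term (B2m), and 0 to 1 as each array was left out. After 2 Gy and between the doses it was 0 under every alternative. The replicate block also gave 0 of 9 in each comparison. Deviations of same-numbered arrays correlated between -0.35 and 0.48, and differently numbered arrays were not compared. The numbers were used only to name samples, and whether they mark pairs was not settled. Over all genes the block gave 238 calls after 8 Gy and 67 after 2 Gy, against 1585 and 7.

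The sign of changes that had not passed turned as follows, and the cause was not tested. With quantile normalization the 8 Gy changes were -0.41 for H2-K1, -0.17 for H2-D1, -0.029 for Tapbp and -0.12 for Psmb9, and the deposited table gave -0.41, -0.17, -0.031 and -0.12. Normexp gave -0.45, -0.18, -0.17 and -0.34 for these and -0.070 for Tap2. The slide as a fixed block gave -0.022 for H2-K1, -0.014 for H2-D1, -0.18 for Tap1, -0.20 for Tap2 and -0.25 for Psmb9. At 2 Gy, quantile normalization gave -0.24 for H2-K1, -0.11 for H2-D1, -0.17 for Tapbp and -0.10 for Psmb9, and the deposited table -0.23, -0.11, -0.17 and -0.10. Normexp gave -0.13, -0.11 and -0.14 for H2-K1, Tapbp and Psmb9, and the fixed slide block -0.0099, -0.044 and -0.091 for these and 0.015 for Tap1. Brightness as a covariate gave 0.053 for Tap1, 0.0039 for Tap2 and 0.023 for Psmb8. As each array was left out, the 2 Gy changes ran from -0.21 to 0.035 for Tap1, -0.14 to 0.22 for Tap2, -0.0010 to 0.26 for Tapbp and -0.20 to 0.058 for Psmb8.

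Of the differences within an array, those that turned sign did not pass. Psmb8 less Psmb5 between the doses was -0.035 with normexp, Psmb9 less Psmb6 at 2 Gy -0.0035 with the deposited table, H2-K1 less B2m between the doses 0.051 on the RiboPure arrays, and H2-D1 less B2m between the doses -0.057 with the mean of all probes. As each array was left out, Psmb8 less Psmb5 ran from -0.46 to 0.047 at 2 Gy and from -0.30 to 0.21 between the doses, and Psmb9 less Psmb6 from -0.056 to 0.48 at 2 Gy. Psmb10 less Psmb7 ran from -0.74 to -0.45 at 8 Gy and from -0.28 to 0.053 between the doses, and Tap1 less Tap2 from -0.23 to 0.032 at 2 Gy. Between the doses, H2-K1 less B2m ran from -0.21 to 0.092, H2-D1 less B2m from -0.11 to 0.14, H2-K1 less Cd74 from -0.16 to 0.57 and Tapbp less H2-DMa from 0.47 to 0.95, the last with an adjusted p of 0.0306 in the exact permutation test without 8 Gy replicate 1.

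Over all genes, the 1585 calls after 8 Gy (1013 higher, 572 lower) became 1091 with quantile normalization (502 and 589), 1086 with the deposited table (494 and 592), 2047 with normexp (914 and 1133), 564 without the filter, 283 on the RiboPure arrays, 596 with the slide and 804 with the scan day as a random block. With the slide as a fixed block or brightness as a covariate limma called 0, with 1132 and 1788 genes at an unadjusted p under 0.05. Leaving out single arrays gave 268 (0 Gy replicate 1) to 3026 (0 Gy replicate 5). After 2 Gy, counts were 40 with quantile normalization, 53 with normexp, and 926 and 212 without 0 Gy replicate 5 and 2 Gy replicate 3.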
